A study of Mus musculus with 6 samples.

Results

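The PRDM genes described here are Prdm1, Prdm2, Prdm4, Prdm6, Prdm14 and Prdm16, 6 of the 18193 genes measured. Every probe set that the array's annotation gives to 1 of these symbols was taken, 11 probe sets in all. The genes were selected on results that included their change in signal between the days, so that change is described here and not tested. Mouse embryonic stem (ES) cells of the E14 line (129P2/OlaHsd background) carrying an Msgn1-Venus reporter (Msgn1RepV) were differentiated in medium with 15% fetal bovine serum and 0.5% DMSO. It also held Noggin, which blocks BMP signals, at 200 ng/mL and R-spondin3, which strengthens Wnt signals, at 10 ng/mL. Cells positive for the reporter were sorted after 3 or 4 days, and RNA from 3 biological replicates of each day was hybridised to 1 Affymetrix array each. Both days thus share the cell line, the reporter, the medium and the gate, and no unsorted or undifferentiated cells were included in the comparison. Results from 1 ES line and 1 reporter gate cannot be extended to other lines from these arrays. The titles call the replicates biological but do not say how their cultures were separated.

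PRDM proteins carry an N-terminal PR domain, which is related to the SET domain of histone methyltransferases, and in most members a series of C2H2 zinc fingers. Some methylate histones themselves and others act by recruiting histone-modifying enzymes or other cofactors. Prdm1 (also called Blimp1) and Prdm14 are known for their roles in the specification of primordial germ cells, and Prdm14 also for keeping ES cells in the naive state. Prdm6 is known from smooth muscle and vascular precursors, where it acts as a transcriptional repressor. Prdm16 is known for brown fat and for neural and blood stem cells, Prdm2 (also called Riz) as a histone methyltransferase and tumour suppressor, and Prdm4 as a binder of the arginine methyltransferase Prmt5.

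All 6 arrays had nearly equal trimmed mean signals, from 160.4 to 162.1. Day 4 replicate 1 stood apart, with a ratio of 3′ to 5′ signal for Gapdh of 14.0 against 2.43 to 3.19 on the other 5 arrays, so some values are also given without it. Signals of the cells' labelled identity were present on both days. Each of 8 presomitic mesoderm markers lay above the filter by its mean over the 6 arrays, with 1 higher and 1 lower at day 4. Msgn1 itself was at 74.6 ± 15.0 at day 3 and 33.2 ± 7.06 at day 4 (mean ± SD, n = 3). Of 9 anterior presomitic and somite markers 7 were tested and 6 rose. Tcf15, the other tested one, was lower on every day 4 array, at 97.1 ± 20.5 and 72.9 ± 8.64, and did not pass. Because these are bulk samples, fewer cells of a type and less RNA per cell cannot be told apart. Across all 12285 genes tested, 22.2% passed an adjusted p of 0.05 (limma), 11.5% being higher and 10.7% lower at day 4. The calls numbered 2729, and 1582 without day 3 replicate 3, 1808 without day 3 replicate 2 or 3530 without day 4 replicate 1.

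Prdm6 and Prdm14 had much higher signals at day 4 than at day 3, while Prdm2 and Prdm4 differed little and Prdm1 and Prdm16 lay near the limit of measurement. The signal of a probe set is its deposited brightness on a linear scale. It compares the same probe set between arrays and not one gene with another. As detection calls were not used here, the 40th percentile of all probe sets by mean log2 signal, a signal of 13.5, served as a lower limit and is called the filter level below. Of the 11 probe sets, 7 lay above it by their mean over the 6 arrays, and each of the 6 genes had at least 1 of these. The 3 values of each day did not overlap in 4 of the 11 probe sets, 3 higher and 1 lower at day 4, whereas 28.0% of all 45037 probe sets other than controls did not overlap (14.7% higher and 13.3% lower). These counts were fixed in part by how the genes were chosen.

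**Figure D1:**
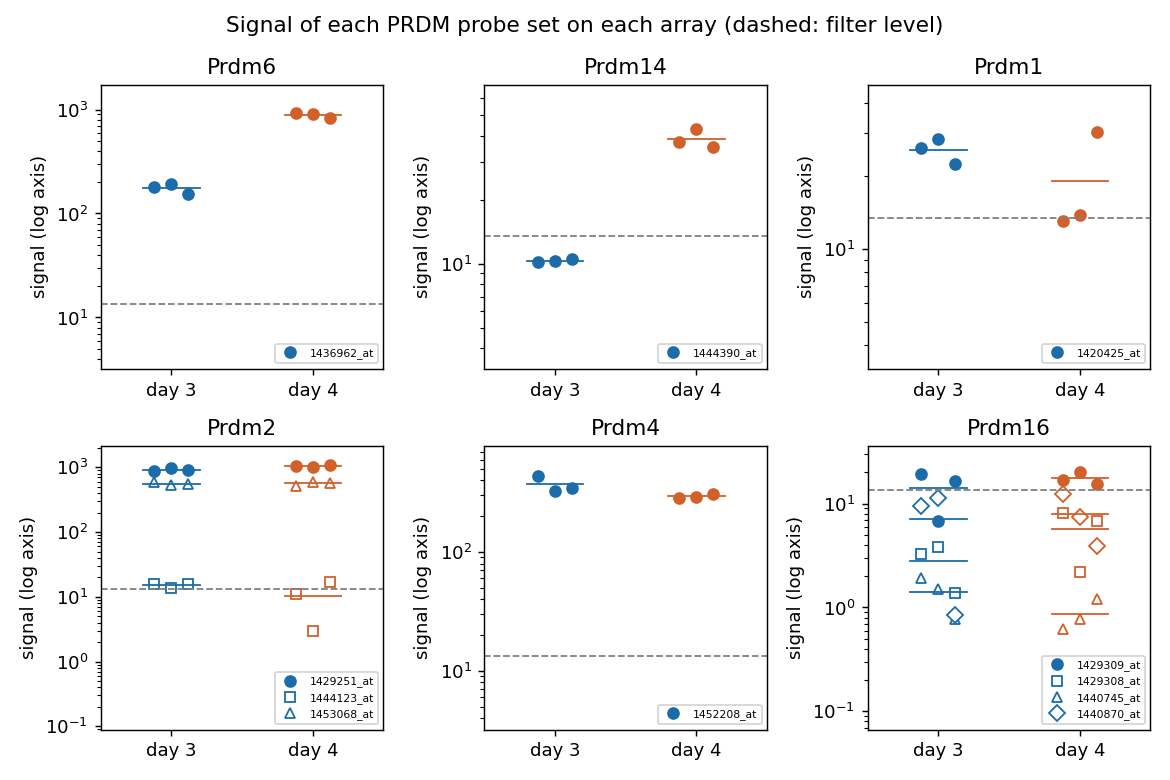
Signal (log axis) of each PRDM probe set at day 3 (blue) and day 4 (orange), 1 point per array with replicates 1 to 3 from left to right. Filled points are the brightest probe set of the gene, open points its other probe sets, horizontal bars the means and the dashed line the filter level of 13.5. The day 4 points of Prdm6 and Prdm14 lie above all their day 3 points, and those of Prdm1 and Prdm16 overlap.

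Prdm6, the repressor of smooth muscle precursors, gave the largest difference of the 6 genes. Its single probe set (1436962_at) had signals of 180.1, 192.1 and 154.9 on day 3 replicates 1 to 3 and of 929.5, 908.8 and 822.6 on day 4 replicates 1 to 3. The days were far apart, the lowest day 4 array being well above the highest day 3 array, and both lay above the filter level on every array. The means were 176 ± 19.0 and 887 ± 56.7 (SD, n = 3), a change of 2.34 ± 0.11 (day 4 minus day 3 on the log2 scale, ± SE, as for all changes below), or 5.06-fold. Among the 12285 genes tested, 17 had a larger rise and 33 a larger change in either direction. Leaving out each array in turn gave changes of 2.25 to 2.41, and 2.30 without day 4 replicate 1.

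Prdm14, a regulator of naive pluripotency and of primordial germ cells, was dim at day 3. Its single probe set (1444390_at) was at 10.2, 10.3 and 10.5 at day 3 and at 37.2, 43.0 and 35.6 at day 4, in the order of the replicates. Every day 3 array lay under the filter level and every day 4 array above it, so the gene entered the test through day 4 alone. The means were 10.3 ± 0.19 and 38.6 ± 3.88. The log2 difference of the deposited signals was 1.90 ± 0.32, taken from day 3 signals that all lie under the filter level. Against that level the day 4 signal was at least 2.86-fold higher, a bound that takes for each day 3 array the higher of its own signal and the filter level. With an offset of 4.14 added before log2, which damps differences between dim signals, the change was 1.56. Without day 4 replicate 1 it was 1.92.

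Prdm1, the repressor that starts the primordial germ cell programme, did not separate the days. Its probe set (1420425_at) was at 26.1, 28.4 and 22.3 at day 3 and at 13.0, 13.8 and 30.3 at day 4. Replicate 3 of day 4 was the brightest of the 6 arrays and the other 2 day 4 arrays, of which 1 was under the filter level, were the dimmest. The means were 25.6 ± 3.06 and 19.0 ± 9.79. The change of -0.54 ± 0.40 became -0.93 when day 4 replicate 3 was left out. It became -0.36 or -0.32 when day 4 replicate 2 or 1 was, so its size rested on single arrays.

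Prdm2, the Riz methyltransferase, had 3 probe sets that did not move alike. The brightest, 1429251_at, was at 874, 979 and 904 at day 3 and at 1068, 1029 and 1077 at day 4, a change of 0.20 ± 0.08 with days that did not overlap. A second bright probe set, 1453068_at, made from the same source sequence by the platform annotation, was at 562 ± 32.0 and 565 ± 40.7. Its days overlapped, and its change was 0.01 ± 0.09. The dim one, 1444123_at, ranged from 13.6 to 16.0 at day 3 and from 3.02 to 17.1 at day 4, around and under the filter level. With the mean over the 3 probe sets the change of Prdm2 was -0.22, the opposite sign to that of the brightest.

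Prdm4, the Prmt5 partner, was lower at day 4 by a small amount. Its probe set (1452208_at) gave 439, 326 and 346 for day 3 and then 285, 292 and 310.3 for day 4. The days did not overlap, but day 3 replicate 1 stood above the other 2 day 3 arrays. The change was -0.31 ± 0.12 and became -0.18 without that array. Prdm4 is also the member whose signal lay far above the filter on both days and for which RefSeq (GRCm38.p6) gave a promoter. The 250 bases before the first of its 2 listed starts, chr10:85916987-85917236 on the minus strand, are shown. Beside them are those of Prdm1, which gave a signal near the filter level, chr10:44458749-44458998 on the minus strand. The Prdm1 window lies within the listed span of the gene, which reaches to about 44528600, so it stands before an internal start. Most of the Prdm4 window also lies within the listed span of its gene, which reaches to about 85917200, so that start is internal too. Capitals mark GC boxes (GGGCGG) and CCAAT boxes (CCAAT), each searched on both strands.
Prdm4: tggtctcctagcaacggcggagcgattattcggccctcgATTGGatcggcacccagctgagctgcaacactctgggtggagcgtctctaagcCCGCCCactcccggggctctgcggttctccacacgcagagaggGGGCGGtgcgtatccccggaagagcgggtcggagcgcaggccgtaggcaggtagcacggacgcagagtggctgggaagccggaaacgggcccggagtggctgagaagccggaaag
Prdm1: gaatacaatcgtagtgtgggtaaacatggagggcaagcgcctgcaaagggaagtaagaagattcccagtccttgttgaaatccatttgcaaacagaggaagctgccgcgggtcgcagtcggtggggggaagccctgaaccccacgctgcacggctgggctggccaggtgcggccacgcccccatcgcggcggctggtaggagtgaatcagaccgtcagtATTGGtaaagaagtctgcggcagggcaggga
The Prdm4 window held 2 GC boxes and 1 CCAAT box, and that of Prdm1 held 0 and 1. Of all 32851 promoter windows of this length, 32.7% held a GC box and 33.8% a CCAAT box. The windows held 24 and 15 CpG pairs, against a median of 6 over all windows. These matches describe letters and are not tested sites. The window before the second listed start of Prdm4, not shown, held 3 GC boxes and 0 CCAAT boxes. The Prdm16 window held 1 box of each kind, and Prdm2, Prdm6 and Prdm14 have no sequence shown.

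Prdm16, the brown fat and stem cell regulator, was close to the limit of measurement on all 4 of its probe sets. The brightest, 1429309_at, was at 19.4, 6.74 and 16.4 at day 3 and at 17.0, 20.2 and 15.5 at day 4. Its days overlapped, with day 3 replicate 2 the one array under the filter level. The change was 0.43 ± 0.49. It ranged from -0.03 with day 3 replicate 2 left out to 0.73 with day 3 replicate 1 left out. The other 3 probe sets lay under the filter level on every array, with signals between 0.617 and 12.4, overlapping days and changes of 0.95 ± 0.78, -0.66 ± 0.68 and 0.66 ± 1.01. No direction can be given for Prdm16 from these values.

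**Figure D2:**
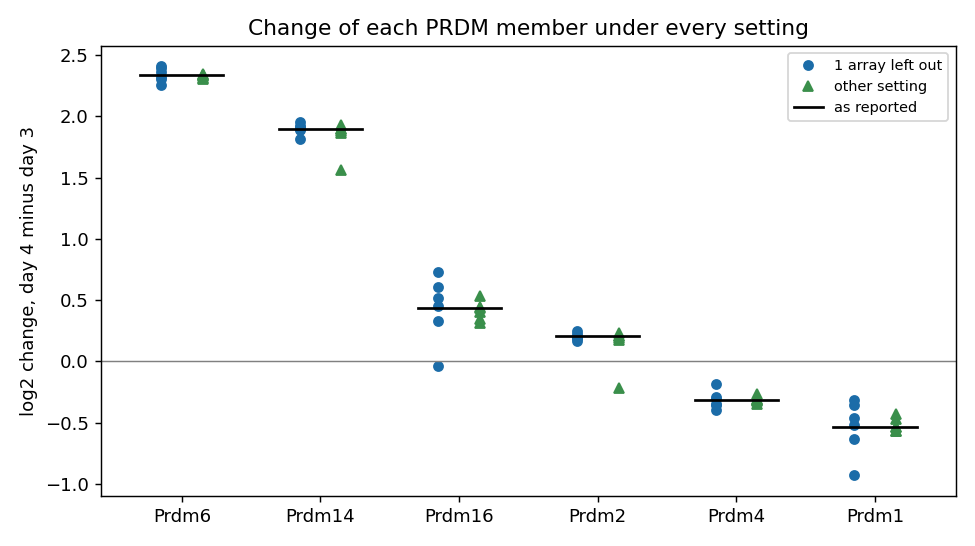
Log2 change from day 3 to day 4 of the brightest probe set of each PRDM gene as reported (black bar), with 1 array left out (blue circles) and under the other settings (green triangles). Prdm6 stays between 2.25 and 2.41 and Prdm14 between 1.56 and 1.95. Prdm16 with an array left out and Prdm2 with its probe sets averaged have points on both sides of 0.

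The rest of the PRDM family was listed by name, with earlier results of these data known. Of these genes, 7 were measured, 6 were tested and 1 rose, a share of 16.7% beside the 22.2% of all genes tested. The median change of the 6 was 0.09, against -0.01 over all genes tested. Prdm10, a zinc finger regulator of transcription, was the one past the threshold. Its brightest probe set, 1429689_at, was at 75.8, 91.7 and 95.4 at day 3 and at 122, 117 and 116 at day 4. The days did not overlap, and the change was 0.44 ± 0.14 (limma adjusted p = 0.048). The call was lost whichever array was left out (adjusted p = 0.0608 to 0.129), with the replicate block (0.0664) and without a variance trend (0.0502). Over all alternatives its adjusted p ran from 0.031 to 0.129. Another probe set of the gene, 1441764_at, changed by -0.27 ± 0.34 with overlapping days.

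The promoter window of Prdm10 before the first of its 2 listed starts, chr9:31280299-31280548 on the plus strand, is shown as that of the family gene past the threshold, with the same boxes in capitals.
Prdm10: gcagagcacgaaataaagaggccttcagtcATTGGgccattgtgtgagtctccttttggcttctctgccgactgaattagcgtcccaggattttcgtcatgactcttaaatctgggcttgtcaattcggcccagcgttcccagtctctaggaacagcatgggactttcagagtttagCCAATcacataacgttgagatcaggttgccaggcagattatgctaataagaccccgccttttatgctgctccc
The window held 2 CCAAT boxes and 0 GC boxes. It lies within the listed span of Prdm10, which begins at about 31276100, so it too stands before an internal start. The window before the second listed start, not shown, held 0 GC boxes and 0 CCAAT boxes.

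The remaining family genes did not pass. Prdm15, a regulator of naive pluripotency, was at 181, 160 and 162 at day 3 and at 244, 188 and 198 at day 4. Its days did not overlap, day 4 replicate 1 was the brightest array, and the change was 0.32 ± 0.13 (adjusted p = 0.115), or 0.21 without that array. Prdm11 was at 22.3, 20.6 and 27.7 and at 15.4, 17.0 and 12.8, lower on every day 4 array (change -0.64 ± 0.31, adjusted p = 0.17, and 0.046 in the fit without a variance trend). Zfp408, which is counted as Prdm17, changed by -0.17 ± 0.11 (adjusted p = 0.317). Prdm8, a neural and retinal factor, was at 41.8 ± 9.67 and 42.3 ± 7.36, and Prdm9, the meiotic recombination factor, at 14.0 ± 2.41 and 16.1 ± 6.21 (adjusted p = 0.944 and 0.815). The signs of these last 2 changes turned under some settings. Mecom (also called Prdm3) lay under the filter level on every array with its 3 probe sets, between 0.265 and 8.34.

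**Figure D3:**
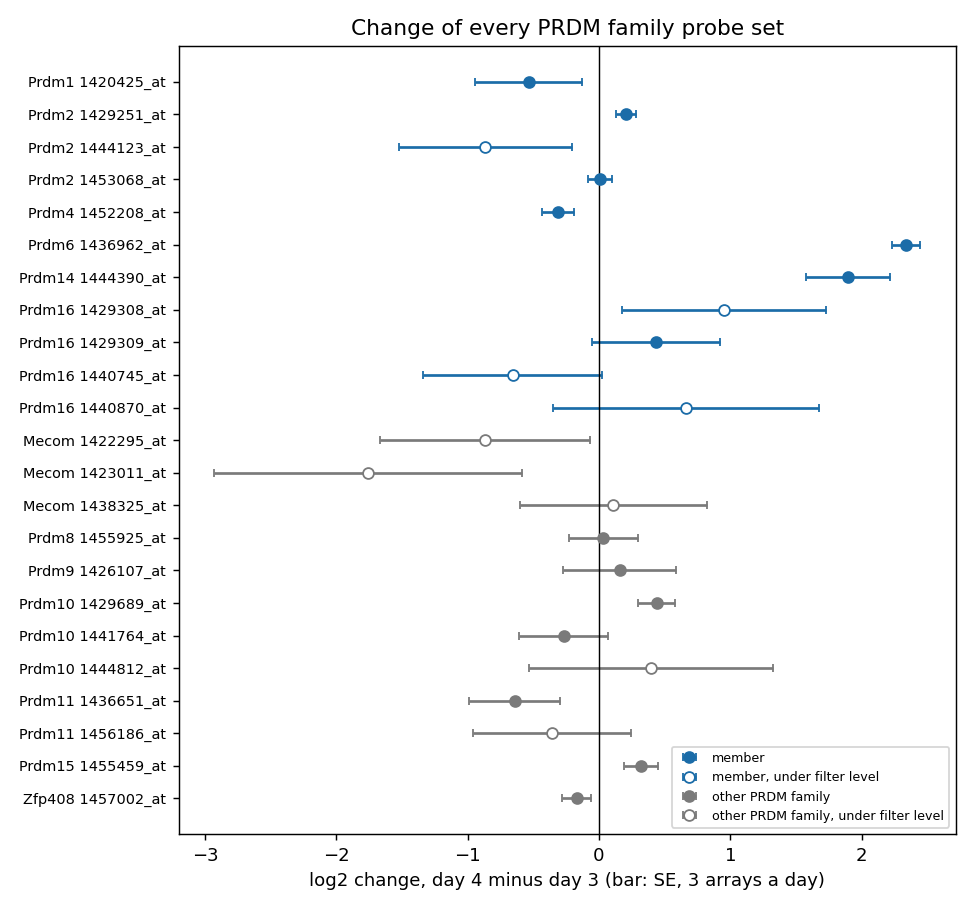
Log2 change (day 4 minus day 3, bars are SE from 3 arrays a day) of all 11 probe sets of the 6 members (blue) and all 12 of the other measured family genes (grey). Open points are probe sets whose mean lay under the filter level. Prdm6 and Prdm14 lie apart at 2.34 and 1.90, and the other points above the filter level lie between -0.64 and 0.44.

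The 3 genes whose pattern over the 6 arrays lay nearest to that of Prdm6, by root mean square difference of log2 signals centred on each gene's mean, were Txnip (0.116), Clu (0.130) and Id2 (0.172). Txnip, an inhibitor of thioredoxin and of glucose uptake, was at 341 ± 37.2 and 1652 ± 142. Clu, the secreted chaperone clusterin, was at 617 ± 52.7 and 2790.3 ± 46.8. For Prdm14 the nearest were Lcorl (0.0924), Bmp5 (0.126) and again Id2 (0.15). The day 3 signals of Prdm14 used in this match all lay under the filter level. Lcorl, a transcription factor related to Lcor, was at 51.2 ± 3.25 and 192 ± 6.24, and Bmp5, a BMP ligand, at 63.2 ± 7.05 and 241 ± 20.2. Id2, an inhibitor of basic helix-loop-helix factors, was at 85.9 ± 7.69 and 356 ± 11.2. These genes were picked for their likeness over the same arrays, so their values are a description.

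**Figure D4:**
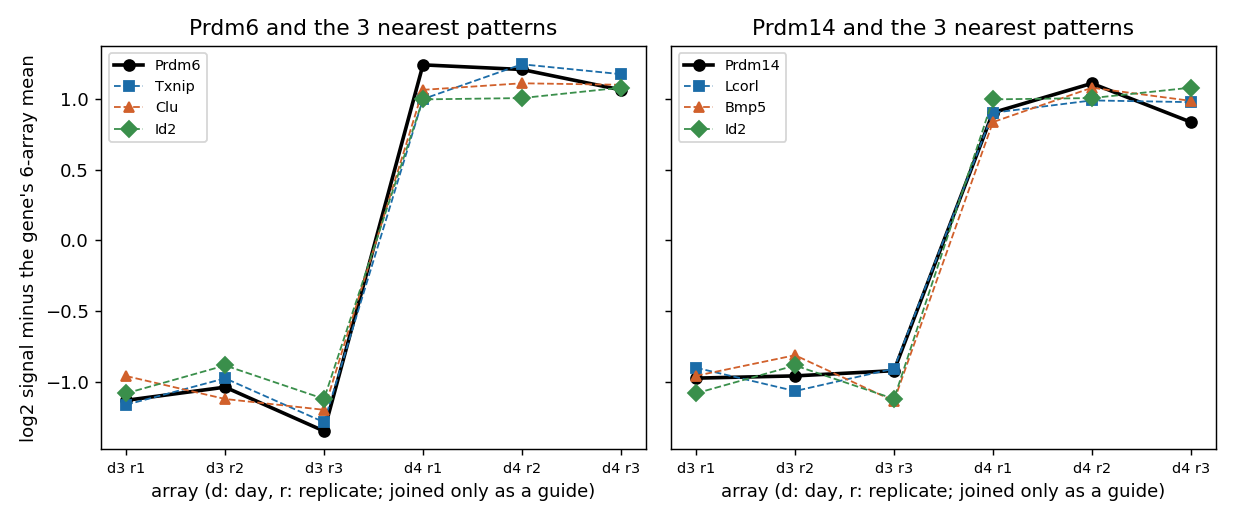
Log2 signal of Prdm6 (left) and Prdm14 (right), each with its 3 nearest genes, on each of the 6 arrays after subtracting the gene's mean over the arrays. Lines only guide the eye. In both panels the 3 day 3 arrays lie below 0 and the 3 day 4 arrays above it for every gene drawn.

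Genes that work with Prdm14 or that it is known to repress moved in both directions. Its corepressor Cbfa2t2 and the Polycomb repressive complex 2 (PRC2) form a list in which 4 of 13 tested genes rose and 0 fell. The share was 30.8% against 22.2% of all genes tested, and the median change -0.01 (1 rose without day 3 replicate 2 or 3). Cbfa2t2 was at 452 ± 24.4 and 628 ± 115 (change 0.46 ± 0.13, adjusted p = 0.0298). Its call ended when any 1 of the day 3 replicates was left out (adjusted p up to 0.102) and with its probe sets averaged (0.166), and its change without day 4 replicate 1 was 0.32. Ezh1, a PRC2 methyltransferase, rose by 0.68 ± 0.12 (adjusted p = 0.00401). Mtf2, which guides PRC2 to DNA, rose by 0.29 ± 0.07 and the accessory subunit Aebp2 by 0.27 ± 0.08 (adjusted p = 0.014 and 0.0302). Averaged over their probe sets, Ezh1 had a change of 0.02 and Mtf2 an adjusted p of 0.108. Leaving out day 3 replicate 2 or 3 ended the calls of Mtf2 and Aebp2 (up to 0.074 and 0.129), as did day 4 replicate 2 or 3 for Aebp2. The core subunits Suz12, Eed and Ezh2 did not pass, with changes of -0.04 ± 0.09, -0.07 ± 0.07 and -0.01 ± 0.13.

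Of 10 genes known as repressed by Prdm14 in ES cells, 2 rose and 4 fell (1 and 2 without day 3 replicate 2 or 3). With all arrays these were 60% of the list against 22.2% of all genes tested, and the median change was -0.21. Fgf5, a gene of the primed epiblast, fell by 2.20 ± 0.11 from 517 ± 23.1 to 113 ± 10.6 (adjusted p = 5.64e-06). The de novo DNA methyltransferases split, Dnmt3a rising by 0.81 ± 0.15 and Dnmt3b falling by 0.45 ± 0.08 (adjusted p = 0.0047 and 0.00473), with Dnmt3a at 0.62 without day 4 replicate 1. Uhrf1, a cofactor of maintenance methylation, fell by 0.43 ± 0.11 (adjusted p = 0.0169). It did not pass when day 3 replicate 2 or 3 was left out (up to 0.0852) or when its probe sets were averaged (change -0.21, 0.487).

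The naive pluripotency genes that share roles with Prdm14 had 3 members higher and 5 lower of 16 tested (3 and 2 without day 3 replicate 3). With all arrays the share was 50% beside 22.2% of all genes tested, with a median change of -0.24. Nanog was at 221 ± 19.7 and 73.6 ± 23.0, and the LIF feedback gene Socs3 at 104 ± 17.4 and 385 ± 86.1 (adjusted p = 0.000738 and 0.000157). Tet2, an enzyme that oxidises methylcytosine, rose by 1.23 ± 0.20, and Fbxo15, a target of Pou5f1 in ES cells, fell by 1.58 ± 0.23 (adjusted p = 0.00264 and 0.00135). Esrrb, a nuclear receptor of naive cells, was at 28.6 ± 7.77 and 25.0 ± 4.64 and did not pass (adjusted p = 0.702). Nr0b1 and Tfcp2l1 lay under the filter level by their means over the 6 arrays. The 9 markers of pluripotent cells, of which 5 were lower and 0 higher, summed to between 8422 and 8854 on the day 3 arrays and between 6081 and 6302 on the day 4 arrays. Most of this sum came from Tdgf1, at 6279 ± 61.8 and 5310 ± 63.2. Klf4, another of the 9, went the other way, at 112 ± 24.0 and 138 ± 7.23, and did not pass. Prdm14 thus had its higher signal on the day 4 arrays, where the summed signal was lower. The part of pluripotent cells in the Prdm14 result was not tested.

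Germ cell specification is the setting in which Prdm1 and Prdm14 are best known. Of 15 tested genes of this list, 1 was higher and 4 lower (1 and 2 without day 3 replicate 2 or 3). With all arrays the share was 33.3% against 22.2% of all genes tested, with a median change of -0.19. Those that fell were Ddx4 and the pluripotency factors Pou5f1, Nanog and Sox2. Pou5f1 fell by 1.91 ± 0.10 (adjusted p = 6.05e-06). Ddx4, a germ cell helicase, was at 164 ± 21.0 and 97.9 ± 22.6 (change -0.76 ± 0.19, adjusted p = 0.0178, and up to 0.0752 when day 3 replicate 2 or 3 was left out). Its change was -0.57 without day 4 replicate 1. The one that rose was Ifitm1, an interferon-induced membrane protein gene also used as an early germ cell marker (change 0.34 ± 0.07, adjusted p = 0.00826). Tfap2c, which acts with Prdm1 and Prdm14 in germ cell precursors, was at 451 ± 64.4 and 326 ± 88.0 and did not pass (adjusted p = 0.102). Dppa3, a marker of these precursors, was at 28.0 ± 5.38 and 26.6 ± 13.8. Of the 8 germ cell markers, 7 were measured, 0 were higher and 1 was lower, and their signals summed to 708 to 874 at day 3 and 465 to 640 at day 4. Dazl lay under the filter level by its mean over the 6 arrays, and Nanos3 had no probe set under its symbol. The part of germ cells in the Prdm14 and Prdm1 signals was not tested.

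Smooth muscle genes were mostly lower on the day 4 arrays, which are also those where Prdm6 was higher. A link with Prdm6 was not tested and cannot be told apart from other differences between the days. Of 16 tested, 1 rose and 10 fell (0 and 7 without day 3 replicate 1 or 3), 68.8% of the list against 22.2% of all genes tested, with a median change of -0.59. Myl9, a regulatory light chain of myosin, was at 267 ± 20.2 and 73.1 ± 5.02 (change -1.87 ± 0.12, adjusted p = 2e-05). Cnn1, the smooth muscle calponin, was at 174 ± 26.7 and 40.2 ± 10.2 (change -2.14 ± 0.21, adjusted p = 0.000197). Gata6, a factor of smooth muscle and endoderm, fell by 0.97 ± 0.12 and the calponin Cnn2 by 0.74 ± 0.10 (adjusted p = 0.000535 and 0.000827). With its probe sets averaged Gata6 did not pass (0.149). The one that rose was Des, the muscle filament desmin, with overlapping days (change 0.99 ± 0.31, adjusted p = 0.0494). Its call was lost with quantile normalization, centring, no filter, the mean over probe sets and no variance trend, where 0 genes of the list rose. Acta2, smooth muscle actin, did not pass (change -0.24 ± 0.10, adjusted p = 0.107).

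Defining genes of mature smooth muscle were dim. Myh11, Myocd, Actg2 and Lmod1 were not tested because their means over the 6 arrays lay under the filter level. Myocd was at 8.91 ± 10.6 and 23.7 ± 6.44, with overlapping days, and above that level on every day 4 array. Actg2 was at 17.2 ± 4.16 and 6.46 ± 4.74, lower on every day 4 array. The 8 smooth muscle markers summed to 3950 to 4828 at day 3 and 1583 to 2618 at day 4, mostly through Tagln, an actin-binding protein at 2626 ± 298 and 932 ± 475, lowest on day 4 replicate 1 (387). The 8 cardiac and lateral plate markers summed to 979 to 1063 at day 3 and 1427 to 1548 at day 4, with 2 higher and 0 lower, and the part of such cells in the Prdm6 signal was not tested. The 8 endoderm markers, a tissue in which Prdm1 is also known, summed to 712 to 752 and 484 to 574, with 1 higher and 3 lower. Endothelial and blood markers were higher in 1 and lower in 2 of 6 tested, with sums of 773 to 818 and 755 to 1023. Neural markers were higher in 0 and lower in 1 of 3 tested, with sums of 185 to 204 and 97.5 to 134.

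Of 19 tested chromatin cofactors through which PRDM proteins act, 2 were higher and 3 lower, or 26.3% beside 22.2% of all genes tested. Their median change was -0.08, and the counts were 0 and 2 without any 1 of the day 3 replicates. Prmt5, the methyltransferase that binds Prdm1 and Prdm4, was at 1069 ± 37.3 and 797 ± 131 (change -0.44 ± 0.12, adjusted p = 0.0279, and up to 0.0976 with 1 day 3 array left out, where no fit passed). Its partner Wdr77 fell by 0.42 ± 0.06 and the histone deacetylase Hdac1 by 0.45 ± 0.08 (adjusted p = 0.00148 and 0.004), the call of Wdr77 ending with its probe sets averaged (0.0861). Ehmt1, a histone H3 methyltransferase bound by Prdm16, rose by 0.48 ± 0.14 (adjusted p = 0.0324, and up to 0.105 in the same 3 fits, none of which passed). Without day 4 replicate 1 the change of Ehmt1 was 0.30 and that of Prmt5 -0.29.

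Partners of Prdm16 were higher in 2 and lower in 1 of 7 tested, and in 2 and 3 without day 4 replicate 1. With all arrays the share was 42.9% against 22.2% of all genes tested, and the median change -0.22. The brown fat genes Pparg, Ppara, Ppargc1a, Ebf2, Cidea and Ucp1 lay under the filter level by their means over the 6 arrays. Zfp516, a cofactor of Prdm16 in brown fat, rose by 0.75 ± 0.12 and the TGF-β effector Smad3 by 0.59 ± 0.12 (adjusted p = 0.00264 and 0.0081). Smad2, another such effector, fell by 0.39 ± 0.11 (adjusted p = 0.0274, and up to 0.111 where day 3 replicate 1 or 3 or day 4 replicate 2 or 3 was left out). Both Smad genes changed sign with their probe sets averaged, to -0.28 for Smad3 and 0.12 for Smad2. Ppargc1b, a coactivator in brown fat, did not pass (change -0.57 ± 0.21, adjusted p = 0.0783, but 0.00136 without day 4 replicate 1). Genes known as repressed by Prdm1 in lymphocytes or germ cells were higher in 1 and lower in 1 of 6 tested. These are 33.3% beside the 22.2% of all genes tested, with a median change of -0.03 over the list. Id3, an inhibitor of basic helix-loop-helix factors, rose by 1.63 ± 0.13 and Myc fell by 0.43 ± 0.13 (adjusted p = 5.09e-05 and 0.039). With 1 array left out Myc passed only where that array was day 4 replicate 1, and otherwise 1 gene of the list was called. Bcl6 and Hoxb1 did not pass (changes -0.32 ± 0.19 and 0.17 ± 0.11). Bcl6 was at -0.12 without day 4 replicate 1 and at -0.49 without day 4 replicate 2, and Hoxb1 at 0.07 without day 3 replicate 1. Without a variance trend, Prdm10, Mtf2, Cbfa2t2, Aebp2, Uhrf1, Prmt5, Ehmt1, Ddx4, Ifitm1, Smad2 and Myc did not pass (adjusted p = 0.0502 to 0.0979). Sox2 and Des lost their calls in that fit as well.

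**Figure D5:**
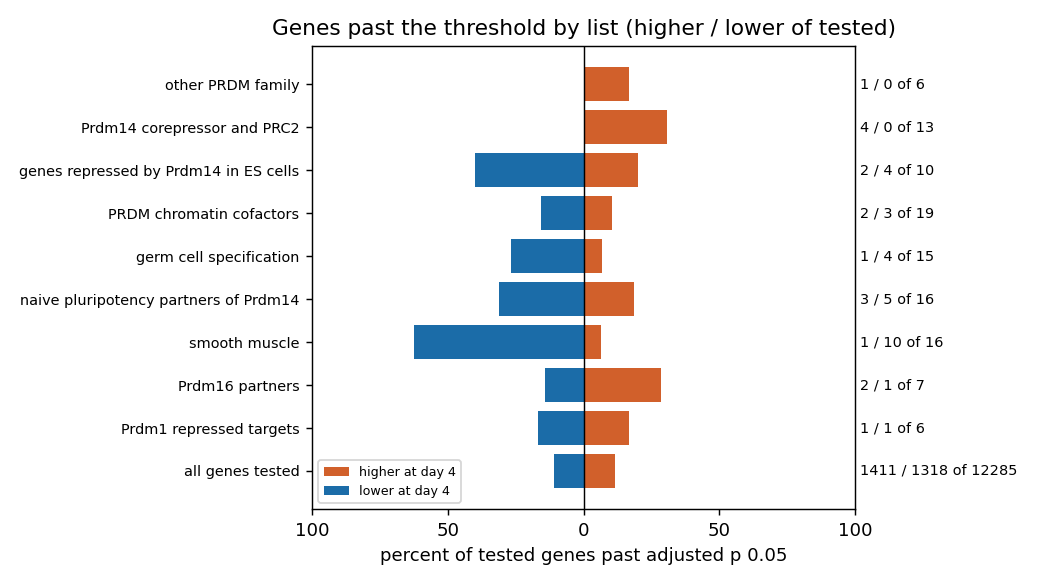
Percent of tested genes in each list past an adjusted p of 0.05 (limma), higher at day 4 to the right (orange) and lower to the left (blue), with all genes tested in the bottom row. Numbers at the right are genes higher and lower of those tested. The smooth muscle list has 10 of 16 lower, the Prdm14 corepressor and PRC2 list 4 of 13 higher.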

How the data were processed

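Per the labels' protocols, total RNA from sorted cells was extracted by either of 2 methods, without saying which array had which, and was amplified in 2 cycles into biotinylated cRNA. MAS5 is named in the submitters' processing notes. The authors deposited linear signal intensities for 45101 probe sets, with version, scaling target and detection calls not given in the sources used here. Dim MAS5 values scatter widely on a log scale. Precision is limited by the number of arrays, 3 a day, and for dim probe sets by this scatter.

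Gene symbols came from the platform annotation (of the probe sets, 34958 with 1 symbol, 932 with several and unnamed, 9211 not listed). Intensities were taken to log2 in R 4.3.3 with limma 3.58.1. The test used the brightest probe set of each gene above the 40th percentile (12285 genes), day as the only term, eBayes with trend and Benjamini-Hochberg adjustment over these genes, 2-sided, at 0.05, and was tested on simulated data. Changes of members and of untested probe sets come from 1 fit of every non-control probe set with no filter, given with no p for members. The 6 members and the 9 gene and 9 marker lists were chosen with earlier results of these data known. Named were all members and measured family genes, up to 4 genes per list with the smallest p, and the 3 nearest patterns of Prdm6 and Prdm14. Other list genes named (Suz12, Eed, Ezh2, Esrrb, Sox2, Tfap2c, Dppa3, Acta2, Tagln, Des) were added after their values were seen. So were Klf4, Tdgf1, Tcf15, Myocd and Actg2. Genes named only as under the filter level or as without a probe set were also outside the naming rule. Alternatives were an offset, 2 normalizations, 2 filters, the mean over probe sets, no variance trend, array weights, a replicate block and leaving out each array. Promoters are RefSeq's (GRCm38.p6).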

Additional observations from a re-analysis of the deposited data

How the results depend on the processing

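Of 72 values of the 6 members under the alternatives, 70 moved by less than the SD between replicates. The exceptions were Prdm14 with the offset (1.56) and Prdm2 with the mean over probe sets (-0.22), where the probe sets differ. Some of the 70 could not move: the replicate block leaves each change as it is, as does averaging for genes with 1 probe set. The SD was wide for Prdm1 and Prdm16, so their ranges below count as unmoved. Leaving out each array gave -0.93 to -0.32 for Prdm1, 0.17 to 0.25 for Prdm2, -0.40 to -0.18 for Prdm4, 2.25 to 2.41 for Prdm6, 1.82 to 1.95 for Prdm14 and -0.03 to 0.73 for Prdm16. Of 150 counts of called genes, 106 stayed within 1.5 times, and for the others the cause was not tested. The count over all genes was 1796 with the mean over probe sets and 4312 with array weights, beside 2729. Without 1 array it ran from 1582 (day 3 replicate 3) to 3530 (day 4 replicate 1), and was 1808 without day 3 replicate 2. The count of other PRDM family genes was 0 under 11 of 15 alternatives: quantile normalization, centring, no filter, the mean over probe sets, the replicate block and each array left out. Without a variance trend the family gene called was Prdm11, lower at day 4, and not Prdm10. With the mean over probe sets the counts were 1 for the Prdm14 corepressor list, 3 for the cofactors, 6 for smooth muscle and 1 for the Prdm16 partners. Without a variance trend they were 1 for the corepressor list, 3 for genes repressed by Prdm14, 2 for the cofactors, 2 for germ cells, 7 for smooth muscle and 1 for Prdm1 targets. Array weights gave 5 Prdm16 partners. Leaving out 1 array gave 1 to 4 for the corepressor list, 3 to 6 for genes repressed by Prdm14, 2 to 6 for the cofactors, 3 to 5 for germ cells, 5 to 8 for naive genes, 7 to 11 for smooth muscle, 2 to 5 for Prdm16 partners and 1 to 2 for Prdm1 targets. Signs turned for Prdm8 with quantile normalization (-0.034), centring (-0.00073) and an array left out (-0.18 to 0.16), for Prdm9 with an array left out (-0.14 to 0.33), and with the mean over probe sets for Smad3 (-0.28) and Smad2 (0.12). The labels' replicate numbers were not shown to pair the arrays: correlations of same-numbered deviations were 0.067, 0.011 and -0.0005. With the replicate block 2884 genes were called, and of the 9 list counts only that of the PRDM family (0) moved by over 1.5 times. Signals near the filter level set the limit for Prdm1, Prdm16 and the day 3 level of Prdm14.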
